A study of Mus musculus with 14 samples.

Results

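*Pitx1*, *Lhx6*, *Lhx8* and *Barx1* are 4 homeobox genes of the oral side of the first pharyngeal arch. They were followed through promoter capture Hi-C (PCHi-C) of mouse cranial neural crest cells (CNCCs), in which probes pull down the HindIII fragments that carry promoters (baits) together with the DNA ligated to them. A contact belonged to a gene when 1 of its 2 fragments was a bait holding a transcription start of that gene in GENCODE vM21 (mm10). These are 4 of the 27570 genes with a start in 1 of the 22171 baits. Each gene had exactly 1 such bait, so every value below is the value of 1 fragment.

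The study asked how promoters in separate CNCC populations of the face contact distant regulatory DNA. It compared, at E10.5, crest from the frontonasal process (FNP), from both parts of the first arch, which are maxillary (Mx) and mandibular (Md), and from the second pharyngeal arch (PA2), followed by the outer ear (pinna) derived from PA2 at E12.5 and E14.5. There were 2 libraries per condition, which the study's methods call biologically independent, and thus 14 libraries in 7 conditions. The 12 wild-type libraries came from *Wnt1::Cre*;*ROSA*RFP embryos, in which the *Wnt1* promoter drives Cre in the premigratory crest and red fluorescent progeny were sorted. The 2 knockout libraries (KO) were PA2 cells of E10.5 *Hoxa2*EGFP/EGFP embryos, in which EGFP replaces *Hoxa2* and green cells were sorted, so genotype and reporter changed together. All mice had a mixed C57Bl/6J and CD1 background, and embryos of different sexes were pooled. E14.5 tissue was dissociated with papain and the earlier tissue with trypsin, so stage and enzyme cannot be told apart there. The first arch group below is Mx and Md (4 libraries) and the other wild-type group is FNP, PA2 and both pinna stages (8 libraries). Ligation scores carry no expression, so the CNCC label, the knockout and the activity of the 4 genes could not be checked with markers here.

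The 4 genes encode DNA-binding homeodomain proteins. *Lhx6* and *Lhx8* belong to the LIM-homeodomain family and act together in the oral mesenchyme that forms palate and teeth. *Barx1*, a Bar-class gene, marks mesenchyme of the future molar region and parts of the arch skeleton. *Pitx1*, of the paired-like bicoid class, is known for mandible and hindlimb development. In the facial primordia, Fgf8 from the oral ectoderm is known to induce *Lhx6*, *Lhx8* and *Barx1* in the underlying crest, while Bmp4 restricts *Barx1*. Promoters of such genes are often reached by enhancers far away along the chromosome, and PCHi-C records that proximity as an excess of ligation products.

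The *Pitx1* bait was the 14.235 kb fragment chr13:55825328-55839562 on mm10 with both annotated starts of this minus-strand gene. It also held the starts of *Gm28760* and of the antisense RNA gene *Gm47071*, which runs in the opposite direction across the contacted region, so contacts of these 3 genes cannot be told apart. The *Lhx6* bait, chr2:36093350-36115737, was the longest of the 4 at 22.388 kb and held all 7 starts of this minus-strand gene. The *Lhx8* bait, chr3:154327446-154330801, was 3.356 kb long and held 4 of 5 starts. The other start, at 154324883, lay in no fragment that the libraries listed as a bait. The *Barx1* bait, chr13:48662164-48666201, was 4.038 kb long and held the only start of this plus-strand gene.

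The sequences of 4 contacted fragments are shown because they are the DNA behind the scores below. For each gene the fragment of at most 320 bases with the highest mean score was taken, read from GRCm38.p6 on the plus strand. Capitals at the ends mark what remains of the HindIII site after the cut, and inner capitals mark TAATTA, a core that many homeodomain proteins can bind. The *Lhx8* fragment lay 239.9 kb upstream of its bait, in intergenic DNA, and was listed in 14 of 14 libraries.
Lhx8 chr3:154568870-154569148: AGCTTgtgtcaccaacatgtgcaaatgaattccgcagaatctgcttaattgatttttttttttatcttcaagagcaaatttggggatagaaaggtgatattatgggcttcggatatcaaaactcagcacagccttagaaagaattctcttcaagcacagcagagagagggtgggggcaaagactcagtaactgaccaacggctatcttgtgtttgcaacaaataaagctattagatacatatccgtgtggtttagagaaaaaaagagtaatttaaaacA
The *Barx1* fragment lay 124 kb downstream of its bait, in intergenic DNA before *Phf2*, and was also listed in 14 of 14 libraries.
Barx1 chr13:48787572-48787797: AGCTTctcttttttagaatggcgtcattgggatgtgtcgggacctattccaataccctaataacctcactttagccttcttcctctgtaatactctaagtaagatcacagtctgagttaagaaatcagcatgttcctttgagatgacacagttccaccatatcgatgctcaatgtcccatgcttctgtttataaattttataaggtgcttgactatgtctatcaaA
The *Lhx6* fragment lay 27.8 kb upstream of its bait, in an intron of *Rbm18*, and was listed in 11 of 14 libraries.
Lhx6 chr2:36132241-36132493: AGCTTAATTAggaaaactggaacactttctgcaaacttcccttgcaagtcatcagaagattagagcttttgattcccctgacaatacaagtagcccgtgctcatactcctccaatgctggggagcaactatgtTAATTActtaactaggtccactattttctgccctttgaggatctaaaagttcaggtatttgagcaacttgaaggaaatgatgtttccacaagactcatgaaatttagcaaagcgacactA
The *Pitx1* fragment of 313 bases, of which the first 300 are shown, lay 137 kb upstream of its bait, in an intron of *Gm47071*, and was listed in 6 of 14 libraries.
Pitx1 chr13:55969200-55969499: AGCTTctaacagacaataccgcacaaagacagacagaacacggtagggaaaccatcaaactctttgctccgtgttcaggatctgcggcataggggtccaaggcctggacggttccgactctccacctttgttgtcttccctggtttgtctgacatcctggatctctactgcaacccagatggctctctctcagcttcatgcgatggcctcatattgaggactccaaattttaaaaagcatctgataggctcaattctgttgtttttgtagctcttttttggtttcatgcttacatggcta
TAATTA, which reads the same on both strands, occurred 2 times in the *Lhx6* fragment, the first copy overlapping the cut site, and in none of the other fragments. It was held by 10.48% of the 5288 HindIII fragments of 200 to 320 bases on chromosomes 2, 3 and 13. GC content was 37.6% in the *Lhx8*, 38.5% in the *Barx1*, 39.9% in the *Lhx6* and 46.3% in the *Pitx1* fragment, against a median of 40.8% over those 5288 fragments.

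On the bait side, RefSeq promoter sequence (GRCm38.p6) was at hand for *Lhx6*, *Lhx8* and *Barx1*. It is shown here from the upstream end of the table's window to the base before the outermost GENCODE start, on the gene's strand, since it is the promoter whose contacts were captured.
Barx1 promoter, chr13:48662786-48662997, plus strand: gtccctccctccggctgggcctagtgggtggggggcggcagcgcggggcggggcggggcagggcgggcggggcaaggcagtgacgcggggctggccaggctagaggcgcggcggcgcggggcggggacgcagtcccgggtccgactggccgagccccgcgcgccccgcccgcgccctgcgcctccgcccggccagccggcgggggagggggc
Lhx6 promoter, chr2:36105409-36105658, minus strand: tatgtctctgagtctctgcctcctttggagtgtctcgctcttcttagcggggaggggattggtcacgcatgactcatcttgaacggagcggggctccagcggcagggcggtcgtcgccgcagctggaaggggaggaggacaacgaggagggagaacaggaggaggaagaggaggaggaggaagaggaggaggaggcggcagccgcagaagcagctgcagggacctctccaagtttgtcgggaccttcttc
Lhx8 promoter, chr3:154330660-154330810, minus strand, with the HindIII site in capitals: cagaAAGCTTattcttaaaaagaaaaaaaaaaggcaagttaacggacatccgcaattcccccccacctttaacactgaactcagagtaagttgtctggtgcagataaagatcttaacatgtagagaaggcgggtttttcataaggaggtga
The *Barx1* stretch was 85.4% GC with 31 CpG dinucleotides in 212 bases, the *Lhx6* stretch 61.6% GC with 14 in 250 bases and the *Lhx8* stretch 39.7% GC with 3 in 151 bases. The median of the 32851 promoter windows of 250 bases in the table was 52.4% GC. The HindIII site in the *Lhx8* stretch is the end of its bait, so DNA beyond it was not captured with this promoter. None of the 3 stretches held TAATTA, which 4.84% of the 250-base windows did. The *Lhx8* and *Barx1* stretches were shorter than those windows, so for them the share is not a like comparison.

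The measured value was the CHiCAGO score, which grows, on a natural log scale, as the ligation of a pair becomes less likely under that library's own distance-dependent background. Tables list a pair only from a score of 5, and an unlisted pair was given 0, which means any score below 5. The libraries listed between 119370 and 499756 pairs, and between 113670 and 186248 on the same chromosome, but read numbers are unknown. Pairs between chromosomes made up 46.5% of Md replicate 1 and 62.7% of E12.5 pinna replicate 2, and at most 5.61% of each of the other libraries. The names of those 2 libraries say that they were merged, and results are given without them too where a call on the 4 genes changed.

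All 4 genes had more listed contact signal than most promoters. Averaged over 14 libraries, the summed score of same-chromosome contacts was 324 for *Lhx8*, above 97.9% of all baits, 170.1 for *Lhx6* (92.4%), 127 for *Barx1* (88.4%) and 96.7 for *Pitx1* (83.2%). Over all libraries together, *Lhx6* was listed with 117 fragments, *Lhx8* with 109, *Barx1* with 73 and *Pitx1* with 70. Of these, 41.1% (*Barx1*), 45.7% (*Pitx1*), 58.7% (*Lhx8*) and 64.1% (*Lhx6*) appeared in 1 library only, beside 63.4% of all 837141 same-chromosome pairs. The numbers of each gene include fragments on other chromosomes (12 for *Pitx1*, 7 for *Barx1*, 5 for *Lhx8* and 4 for *Lhx6*), which the shares over all pairs leave out. Fragments listed in all 14 libraries numbered 13 for *Lhx8*, 4 for *Lhx6*, 3 for *Barx1* and 0 for *Pitx1*. These are 11.9%, 3.42%, 4.11% and 0% of each gene's fragments, beside 1.85% of all same-chromosome pairs. Between the replicates of a condition, *Lhx8* shared 57.1% to 93.3% of either library's fragments and *Pitx1* 30.0% to 71.4%.

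Within 1 Mb, most contacted fragments lay on 1 side of each gene. Of the fragments within 1 Mb, 48 of 53 were upstream of *Pitx1*, 32 of 38 upstream of *Lhx6* and 37 of 39 upstream of *Lhx8*, whereas 55 of 60 were downstream of *Barx1*. All 3 upstream sides and the *Barx1* downstream side point towards higher coordinates.

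**Figure D1:**
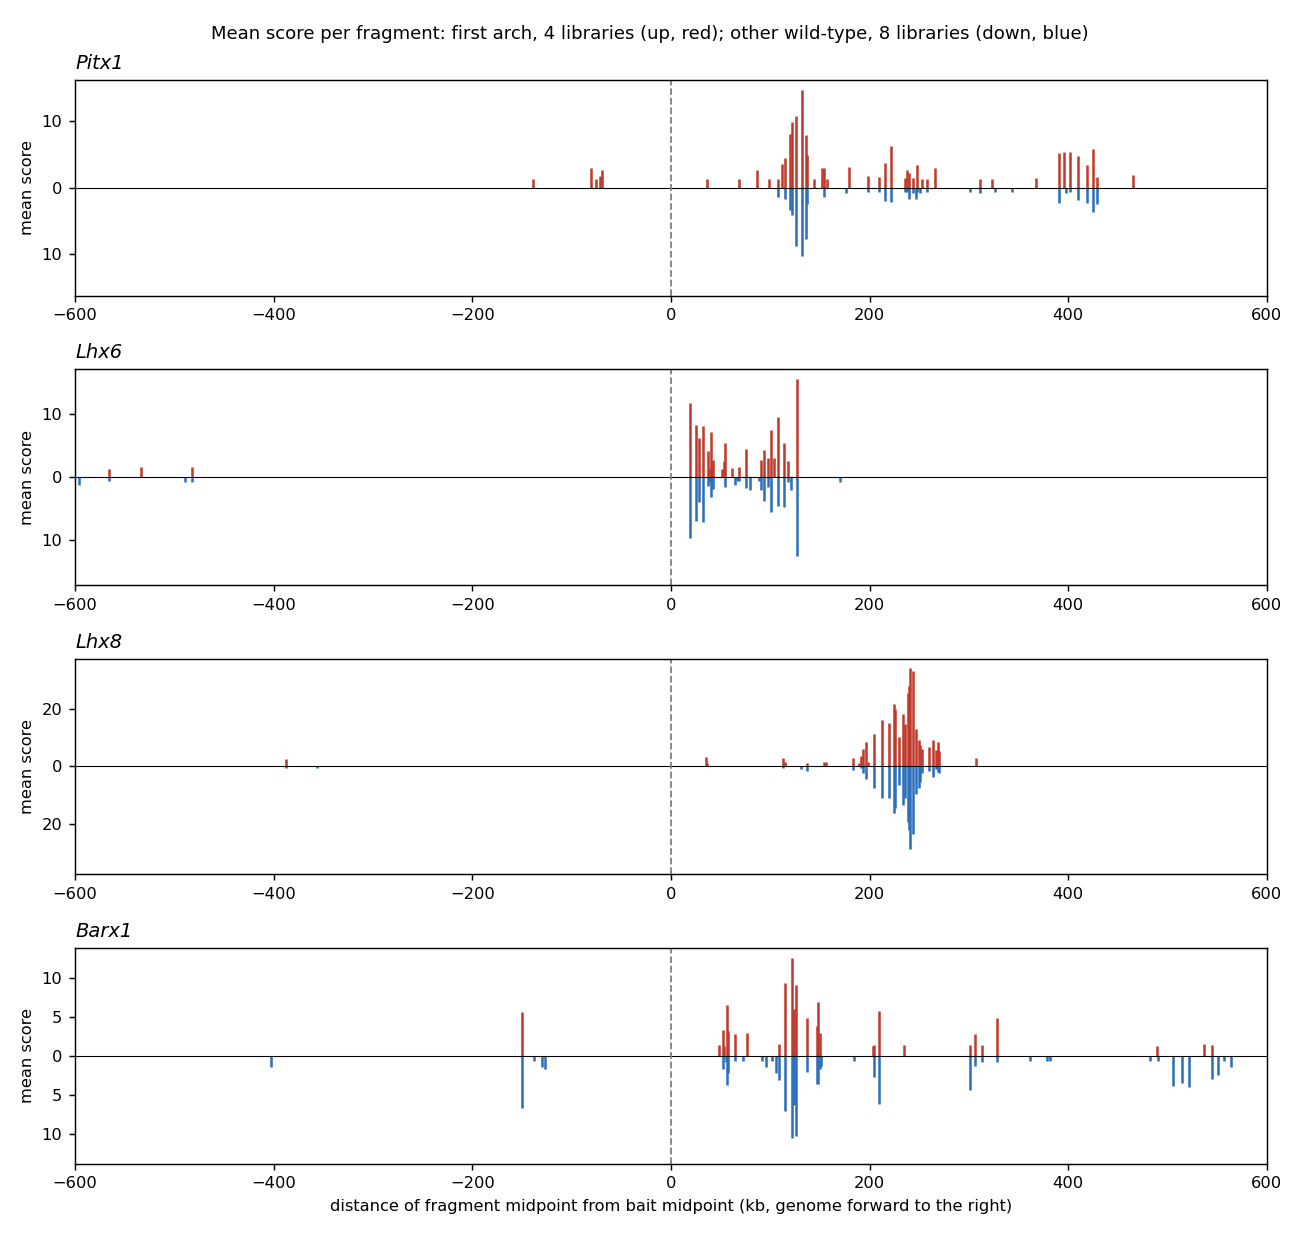
Mean CHiCAGO score (vertical axis) of each contacted fragment by its distance from the bait (horizontal axis, kb), for the 4 first arch libraries (up, red) and the 8 other wild-type libraries (down, blue). The peaks stood at the same distances in both groups, near 132 kb for *Pitx1*, 127 kb for *Lhx6*, 241 kb for *Lhx8* and 122 kb for *Barx1*.

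*Lhx8* had the strongest contacts of the 4 genes, in an intergenic block upstream of the gene. All 13 fragments listed in every library lay between 205 and 249 kb from the bait. The highest mean was that of chr3:154569213-154570788, 241 kb away, which scored 20.2 and 22.1 in FNP, 34.8 and 36.6 in Mx, 31.0 and 33.4 in Md, 35.0 and 39.1 in PA2, 30.2 and 28.0 in KO PA2, 26.8 and 34.8 in E12.5 pinna and 22.1 and 28.6 in E14.5 pinna. FNP was lowest and PA2 replicate 2 highest, and the first arch values lay inside the range of the others. The next fragments in rank were at 244, 239.9, 239 and 225 kb, with means of 26.2, 23.9, 21.3 and 18.0. From 247 kb on the block reached the gene bodies of *Tyw3*, a tRNA-modification enzyme gene, and *Cryz*, which encodes a quinone reductase, with fragment means of at most 10.4.

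The 100 kb window from 200 to 300 kb held this block. Its summed score was 179 and 174 in FNP, 333 and 369.8 in Mx, 262 and 308 in Md, 277 and 294 in PA2, 264 and 239.5 in KO PA2, 244 and 228 in E12.5 pinna and 161 and 194 in E14.5 pinna. Mx was the highest condition, Md and PA2 overlapped, and FNP and E14.5 pinna were lowest. The first arch exceeded the other wild-type libraries by 0.51 ± 0.16 (SE) on the centred log2(sum + 5) scale, with a limma adjusted p of 0.477, so the window was not called. When each condition had its own mean in the fit, which leaves the spread between conditions out of the error, the adjusted p was 0.0176. That setting called 1 of the 17 tested windows of the genes followed here, beside 0.734% of all windows.

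Over the whole chromosome the *Lhx8* sum was 413 and 482 in Mx, 315 and 438 in Md, 358 and 413 in PA2, 240.4 and 281 in FNP, 318 and 294 in KO PA2, 285 and 305 in E12.5 pinna and 161 and 238 in E14.5 pinna. Both Mx libraries were above PA2, FNP, KO PA2 and the pinna, PA2 replicate 2 (412.55) lying just under Mx replicate 1 (413.14), and Mx overlapped Md. The window from 100 to 200 kb of *Lhx8* summed to 33.4 and 59.2 in Mx, 11.7 and 27.3 in Md, and between 0 and 29.6 with a median of 10.6 in the other wild-type libraries. The difference was 1.37 ± 0.54 (SE, limma adjusted p = 0.514). Nearer the gene, the window from 0 to 100 kb summed to 6.65 and 11.1 in Mx and to 0 in the other 12 libraries.

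*Pitx1* contacts centred on a run of fragments inside *Gm47071*. The fragment chr13:55962302-55967015, 132 kb upstream, had the highest mean and scored 8.58 and 5.76 in FNP, 13.6 and 10.8 in Mx, 16.0 and 18.8 in Md, 11.1 and 7.25 in PA2, 0 and 6.06 in KO PA2, 13.6 and 13.8 in E12.5 pinna and 9.61 and 13.2 in E14.5 pinna. Both Md values were above all others, and Mx overlapped the pinna. The next 4 fragments lay at 126, 136, 122 and 119.996 kb with means of 8.48, 7.55, 6.08 and 4.18.

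Contact around *Pitx1* was broadest in Md. The summed score was 223 and 245 in Md, 119.9 and 73.8 in Mx, 78.0 and 41.2 in FNP, 91.7 and 65.0 in PA2, 42.3 and 62.4 in KO PA2, 94.5 and 89.0 in E12.5 pinna and 63.5 and 65.2 in E14.5 pinna. The number of fragments behind these sums was 28 and 35 in Md and 7 to 16 in each of the other 12 libraries. The window from 100 to 200 kb summed to 126 and 112 in Md and to between 18.9 and 72.3 elsewhere. The window from 200 to 300 kb summed to 43.8 and 52.0 in Md and to at most 23.2 elsewhere. Within 100 kb of the bait on either side, both Md libraries listed contacts, and of the other 12 libraries only KO PA2 replicate 2 did, with 5.10. Md replicate 2, in which 3.6% of pairs were between chromosomes, had a larger sum than the merged Md replicate 1.

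Farther upstream, *Pitx1* contacted the neighbourhood of *Neurog1*, a proneural bHLH gene. This region and the other named far regions below were chosen after their values were seen and are described without a test. Within 50 kb of *Neurog1*, 10 fragments were listed in at least 1 library. Their summed score was 36.6 and 10.6 in FNP, 69.0 and 20.3 in Mx, 26.7 and 23.9 in Md, 25.1 and 29.2 in PA2, 11.5 and 14.6 in KO PA2, 5.14 and 6.45 in E12.5 pinna and 0 and 0 in E14.5 pinna. All 10 E10.5 libraries were above the 4 pinna libraries. The fragment at 132 kb, by contrast, was listed in all 4 pinna libraries.

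**Figure D2:**
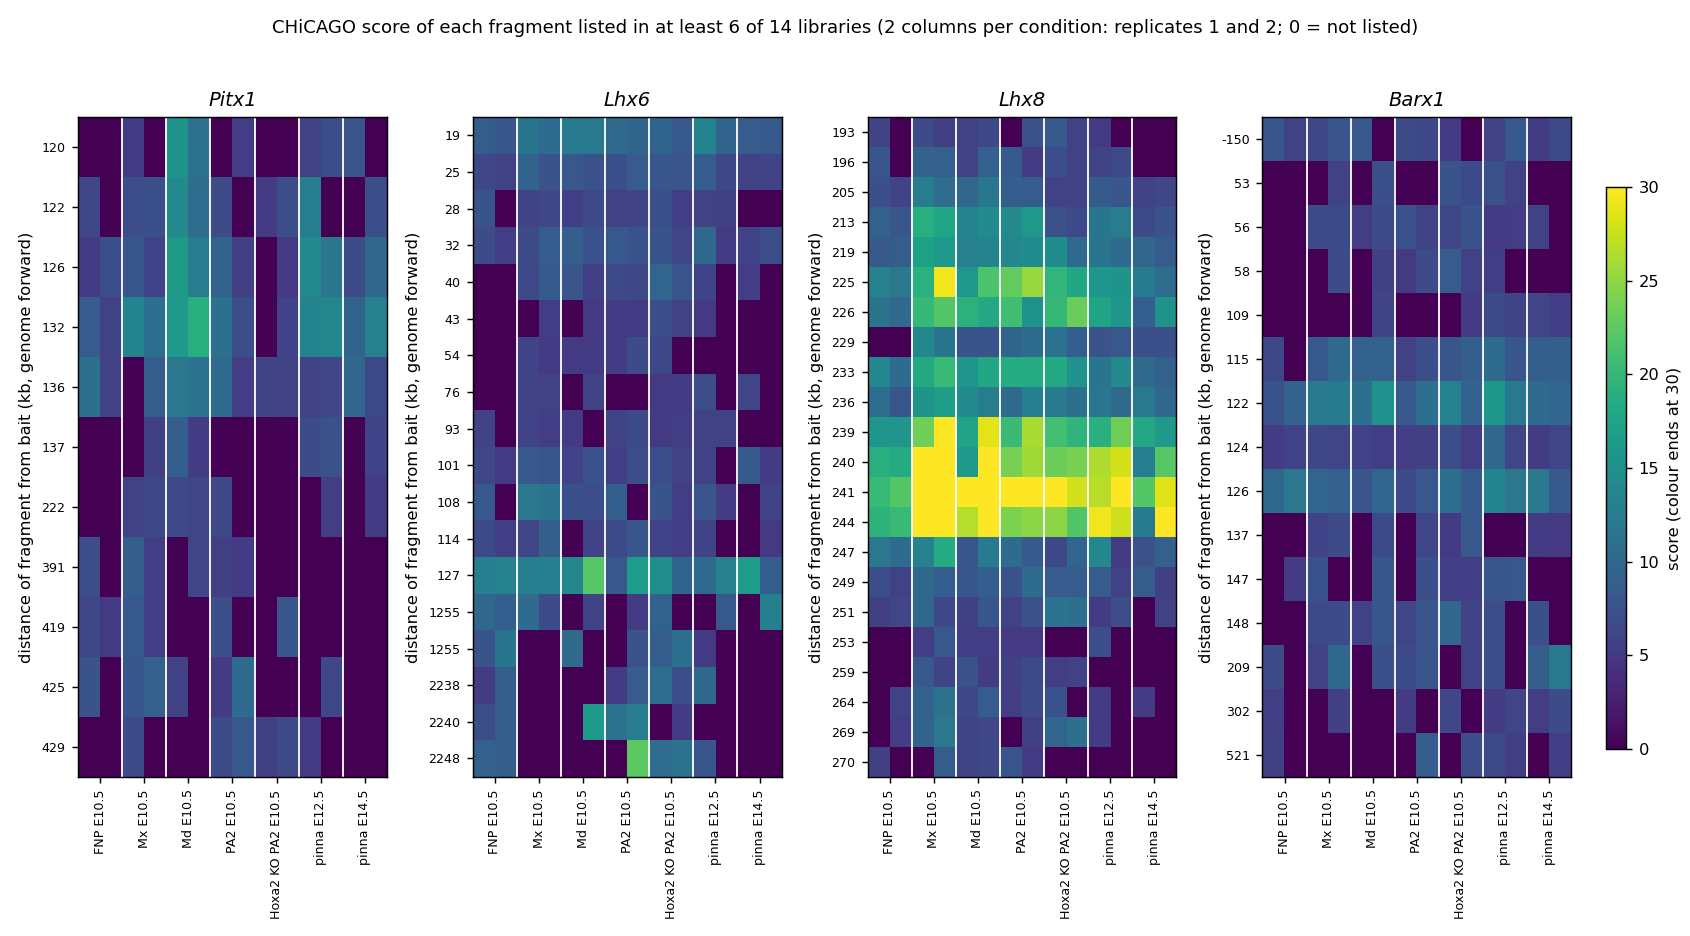
CHiCAGO score (colour, 0 where not listed, scale ending at 30) of each fragment listed in at least 6 of 14 libraries, in rows ordered by distance from the bait (kb) and with 2 columns per condition. *Lhx8* shows the block between 205 and 249 kb in every library, *Pitx1* its highest scores in Md, and *Lhx6* no score in Mx and E14.5 pinna in the rows at 2238 to 2248 kb, which lie at *Lhx2*.

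*Lhx6* contacted the genes next to it on the upstream side. The best fragment, chr2:36227045-36235066, 127 kb away, holds the promoter of *Ptgs1*, which encodes cyclooxygenase-1, and is itself a bait. It scored 12.9 and 13.2 in FNP, 12.8 and 13 in Mx, 13.9 and 22.2 in Md, 8.19 and 16.6 in PA2, 14.8 and 9.67 in KO PA2, 10.2 and 13.1 in E12.5 pinna and 16.6 and 8.97 in E14.5 pinna. PA2 replicate 1 was lowest and Md replicate 2 highest, and the first arch overlapped the other libraries. Fragments at 19.2, 25.3 and 32.2 kb, in *Rbm18* and at the shared promoter fragment of *Rbm18*, *Mrrf* and *Gm13428*, were listed in all 14 libraries with means of 10.1, 7.43 and 7.37. The fragment at 108 kb with the start of *Gm13429* scored 11.9 and 11.5 in Mx, 7.37 and 7.06 in Md, and 0 to 8.92 in the other wild-type libraries.

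Much of the *Lhx6* signal came from beyond 1 Mb. Of its 113 same-chromosome fragments 75 were that far away, beside 65 of 104 for *Lhx8*, 5 of 58 for *Pitx1* and 6 of 66 for *Barx1*. Within 1 Mb its summed score was 115 and 142 in Mx, 102 and 142 in Md, 75.3 and 43.2 in FNP, 125 and 99.2 in PA2, 139 and 62.6 in E12.5 pinna and 83.3 and 57.3 in E14.5 pinna. Beyond 1 Mb it was 30.7 and 18.9 in Mx, 32.8 and 58.5 in Md, 121 and 82.0 in FNP, 75.3 and 161 in PA2, 46.4 and 97.3 in E12.5 pinna and 18.9 and 62.8 in E14.5 pinna. KO PA2 had 136.89 and 84.43 within 1 Mb and 84.25 and 84.92 beyond. Both FNP libraries had more score beyond than within 1 Mb, and both Mx and both Md libraries had less. In PA2, KO PA2 and both pinna stages, replicate 1 had less beyond and replicate 2 had more.

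A distant partner of *Lhx6* was the locus of another LIM-homeodomain gene, *Lhx2*, with fragments 2226 to 2266 kb away on chromosome 2. Within 20 kb of *Lhx2*, 13 fragments were listed in at least 1 library. Their summed score was 51.7 and 34.6 in FNP, 41.8 and 92.4 in PA2, 55.1 and 67.5 in KO PA2, 41.3 and 0 in E12.5 pinna, 9.19 and 22.4 in Md, and 0 in both Mx and both E14.5 pinna libraries. FNP, PA2 and KO PA2 were above both first arch conditions in all 6 libraries, and the E12.5 pinna replicates disagreed.

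*Lhx8* also had listed contacts 26685 to 26700 kb away on chromosome 3. There, within 20 kb of *Neurog2*, another proneural gene, 6 fragments were listed, with sums of 9.62 and 37.6 in FNP, 7.71 and 31.8 in PA2, 41.9 in Md replicate 2 and 0 in the other 9 libraries. FNP and PA2 were the conditions in which both libraries listed such a contact.

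*Barx1* contacts formed a cluster in the intergenic DNA between *Barx1* and *Phf2*. The fragment chr13:48784392-48787337, 122 kb downstream, scored 12 and 12.3 in Mx, 11.0 and 15.2 in Md, and 13.2 and 9.44 in KO PA2, and between 7.55 and 15.8 with a median of 10.2 in the 8 other wild-type libraries. FNP replicate 1 was lowest and E12.5 pinna replicate 1 highest, and the first arch overlapped the other libraries. Fragments at 126, 115 and 124 kb had means of 9.91, 7.91 and 6.22. On the other side of the gene, 150.3 kb away, the promoter fragment of the RNA gene *A830005F24Rik* was listed in 12 of 14 libraries with a mean of 5.78.

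*Barx1* was lowest in FNP. Its summed score was 61.6 and 70.4 in FNP, 115 and 122 in Mx, 87.9 and 144 in Md, 101 and 157 in PA2, 172 and 173 in KO PA2, 193 and 123 in E12.5 pinna and 125 and 138 in E14.5 pinna. Of the 115 in Mx replicate 1, 22.6 came from 1 fragment at *Foxd1*, 49695 kb away, that no other library listed. In the window from 500 to 600 kb, which holds the promoter fragments of *Ninj1*, an adhesion molecule gene, and *Card19*, the sum was 0 and 0 in Mx, 0 and 11.8 in Md, 12.1 and 20.8 in FNP, 7.28 and 22.2 in PA2, 29.2 and 11.3 in E12.5 pinna and 19.4 and 30.0 in E14.5 pinna. The KO PA2 libraries, which are outside this comparison, had 0 and 12.4. Of the first arch libraries, only Md replicate 2 overlapped the other wild-type libraries. The difference was -1.78 ± 0.41 (SE) with a limma adjusted p of 0.323. Without the filter on low windows the adjusted p was 0.0250. That setting called 1 of the 26 tested windows of the genes followed here, beside 0.331% of all windows.

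**Figure D3:**
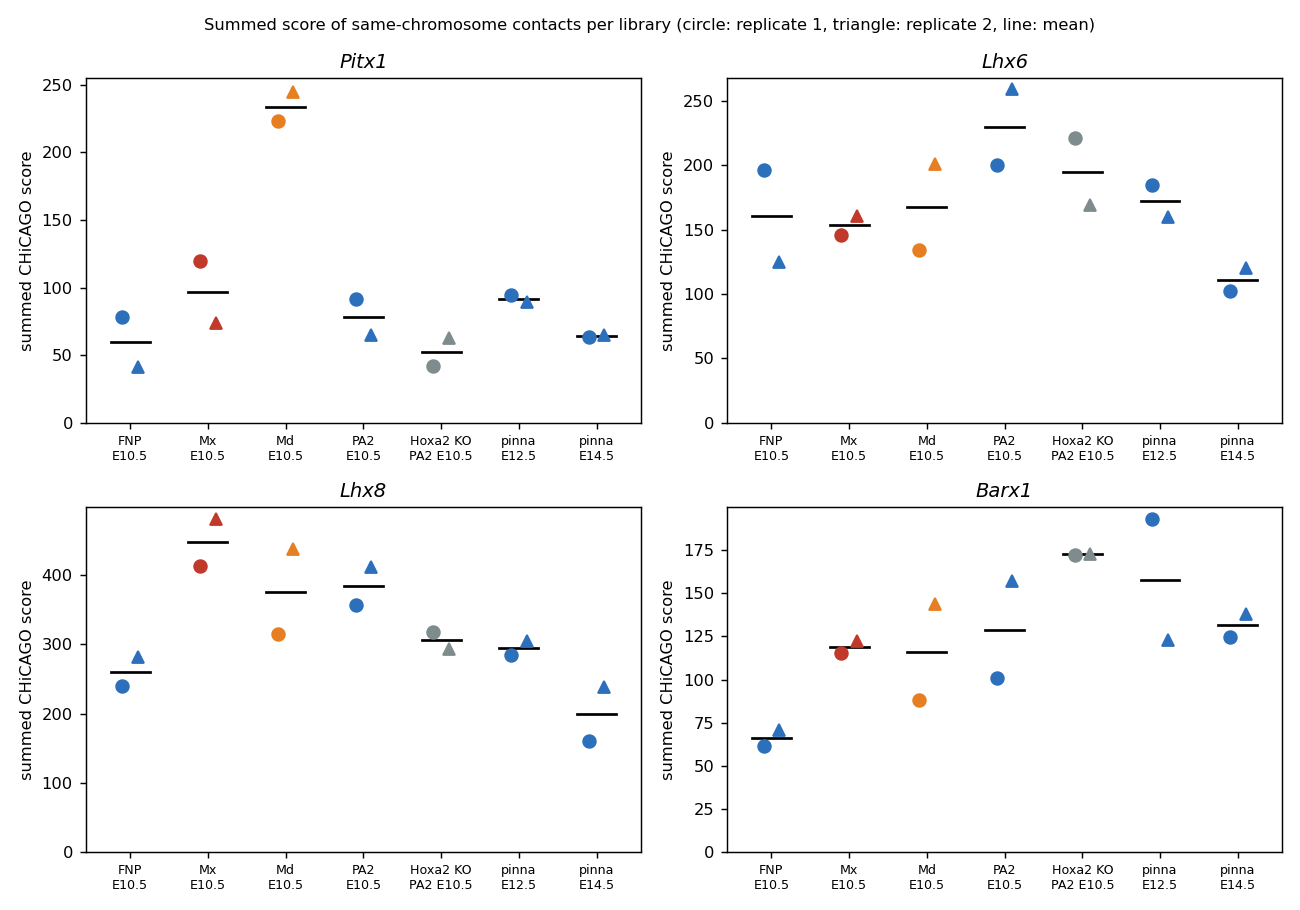
Summed CHiCAGO score of same-chromosome contacts (vertical axis) of each gene in the 14 libraries by condition, with circles for replicate 1, triangles for replicate 2 and lines for the mean. Md stands apart for *Pitx1* at 223 and 245, Mx is highest for *Lhx8* and FNP lowest for *Barx1*.

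The first question was whether these promoters had more contact signal in the first arch than elsewhere. The summed score of *Pitx1* was 165 ± 81.8 (SD, n=4) in the first arch and 73.5 ± 18.2 (SD, n=8) in the other wild-type libraries, a ratio of 2.25 (two-sided exact permutation test over all groupings, p = 0.0101). That of *Lhx8* was 412 ± 70.6 and 285 ± 77.2, a ratio of 1.45 (exact permutation p = 0.0222). *Lhx6*, at 161 ± 29.0 and 169 ± 52.2, had a ratio of 0.952 (exact permutation p = 0.782), and *Barx1*, at 117 ± 23.0 and 121 ± 43.7, a ratio of 0.968 (exact permutation p = 0.877). These p-values are not adjusted. The groupings shuffled single libraries, so replicates of a condition were counted as independent members of a group. The p-values therefore do not measure the spread between conditions and may be too small. Of the 21889 baits tested, 7.44% had such a p-value below the threshold, 6.09% being higher in the first arch. The 2 groups overlapped for each of the 4 genes, as they did for most promoters, 0.64% of all baits having groups without overlap on the centred log2 scale.

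For *Pitx1* the difference came from Md, since Mx (119.9 and 73.8) overlapped the PA2 and E12.5 pinna values. Among the E10.5 wild-type libraries alone, 4 on each side, the ratio was 2.40 (exact permutation p = 0.0857). For *Lhx8* the same restriction gave a ratio of 1.28 (exact permutation p = 0.143), and PA2 (358 and 413) lay within the first arch range of 315 to 482. Without Mx replicate 2 the *Lhx8* ratio was 1.36 (exact permutation p = 0.0727), and without Md replicate 2 it was 1.42 (exact permutation p = 0.0545). Within 1 Mb, *Lhx6* had a ratio of 1.47 (exact permutation p = 0.0626) in place of 0.952.

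Fitted across all baits with limma, none of the 4 genes was called. The difference on the centred log2(sum + 5) scale was 0.90 ± 0.31 (SE) for *Pitx1* (adjusted p = 0.596), 0.44 ± 0.26 for *Lhx8* (0.726), -0.14 ± 0.28 for *Lhx6* (0.937) and -0.10 ± 0.30 for *Barx1* (0.961). The share of all 21889 baits called was 0%, so 0 of 4 is no result about these genes. Likewise 0 of the 16 windows of the 4 genes that were tested passed (0% of 55558 windows, called by limma) and 0 of their 150 tested pairs (0.00105% of 286137 pairs). An unadjusted limma p under 0.05 was held by 4 of the 16 windows, beside 5078 of all 55558 windows. It was held by 26 of the 150 pairs, beside 21851 of all 286137 pairs. In none of the 16 windows were the groups free of overlap, beside 0.733% of all windows. The other windows ranked among the 3 largest of their gene by absolute difference were those of *Pitx1* from 400 to 500 kb (0.89 ± 0.50), 300 to 400 kb (0.87 ± 0.43) and 200 to 300 kb (0.80 ± 0.50), of *Lhx6* from 0 to 100 kb (0.66 ± 0.31), 100 to 200 kb (0.40 ± 0.27) and -600 to -500 kb (0.13 ± 0.37), of *Lhx8* from -400 to -300 kb (0.23 ± 0.34) and of *Barx1* from 0 to 100 kb (0.87 ± 0.50) and -200 to -100 kb (-0.61 ± 0.39), with limma adjusted p from 0.542 to 0.927. The difference was positive in 14 of the 16 windows and in 106 of the 150 pairs, including 31 of 35 pairs of *Pitx1* and 35 of 42 of *Lhx8* but 14 of 34 of *Barx1*. Pairs passed the filter by being listed in at least 2 libraries, so these are not all contacts of the genes. A pair listed only in the first arch entered with a positive sign, and a pair listed only elsewhere with a negative sign. The median difference was itself positive over all pairs tested (0.052) and over all windows tested (0.015). Signs were not counted over all features, so these counts carry no test.

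Any difference among the 7 conditions was tested in addition, chosen after the values by condition were seen. With limma's F test over all baits, 5.10% of 21991 baits were called and 0 of the 4 genes, with adjusted p of 0.118 for *Lhx8*, 0.122 for *Pitx1*, 0.191 for *Barx1* and 0.270 for *Lhx6*.

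**Figure D4:**
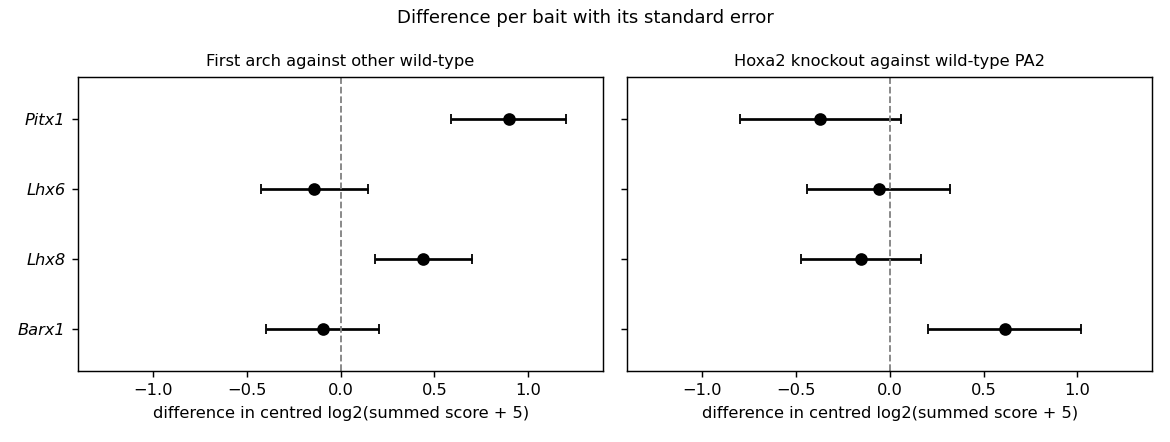
Difference of each gene's bait (horizontal axis, centred log2 of summed score + 5; bars, standard error from limma) for first arch against other wild-type libraries (left) and *Hoxa2* knockout against wild-type PA2 (right). *Pitx1* lies farthest from 0 on the left at 0.90 and *Barx1* on the right at 0.61, and no gene passed the adjusted threshold.

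The knockout comparison asked whether loss of *Hoxa2*, which gives PA2 its identity, changed these contacts. The summed score of *Barx1* was 172 and 173 in KO PA2 and 101 and 157 in wild-type PA2, a ratio of 1.34. The sums given above make the ratio 0.668 for *Pitx1* and 0.794 for *Lhx8*. *Lhx6* summed to 221 and 169 in KO PA2 and 200.1 and 259.8 in wild-type PA2, a ratio of 0.849. With 2 libraries a side an exact test cannot go below 0.333. When the sums were taken relative to each library's summed score, which was lowest in the KO libraries, the ratio became 1.70 for *Barx1*, 0.836 for *Pitx1*, 1.08 for *Lhx6* and 1.01 for *Lhx8*, so the direction held for *Barx1* and *Pitx1* and turned for the LIM genes.

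In the limma fit of all 14 libraries the *Barx1* bait differed by 0.61 ± 0.41 (SE, adjusted p = 0.615), *Pitx1* by -0.37 ± 0.43 (0.804), *Lhx8* by -0.15 ± 0.32 (0.907) and *Lhx6* by -0.06 ± 0.38 (0.965). Called were 0 of 4 genes, 0 of 17 windows and 0 of 94 pairs, beside 0.646% of all baits, 0.357% of windows and 2.16% of pairs. An unadjusted limma p under 0.05 was held by 3 of the 17 windows, beside 8600 of all 59905 windows. It was held by 12 of the 94 pairs, beside 27101 of all 161463 pairs. Without the 2 merged libraries 1 pair of *Lhx8* was called, lower in KO PA2, of 85 tested, beside 4.83% of all pairs. Without KO PA2 replicate 2, 2 pairs of *Pitx1* were called, also lower, of 90 tested, beside 2.60% of all pairs. On the centred log2 scale the groups did not overlap for 1 of the 4 genes, *Barx1*, beside 48.7% of all baits, and in 8 of the 17 windows, beside 52.3% of all windows. The largest window difference of *Barx1* was at 400 to 500 kb, with 12.7 and 11.5 in KO PA2 and 0 and 0 in wild-type PA2 (1.85 ± 0.53, limma adjusted p = 0.153). That window was also above 0 in Md replicate 2 (5.11), E12.5 pinna replicate 2 (5.59) and E14.5 pinna replicate 2 (5.45). In the window from 0 to 100 kb *Barx1* had 56.9 and 49.1 in KO PA2 and 18.9 and 30.3 in wild-type PA2 (1.07 ± 0.48, adjusted p = 0.321). *Lhx8* had a sum 300 to 400 kb downstream of 5.96 and 7.37 in the KO libraries and 0 in both wild-type PA2 libraries (1.30 ± 0.48, adjusted p = 0.246). That window was also above 0 in both Mx libraries, E12.5 pinna replicate 1 (5.10) and E14.5 pinna replicate 2 (5.15). *Pitx1* in the window from 400 to 500 kb had 5.63 and 14.6 in KO PA2 and 19.5 and 24 in wild-type PA2 (-0.80 ± 0.55, adjusted p = 0.588). The other windows ranked among the 3 largest of their gene had limma adjusted p of 0.540 or more: *Pitx1* from 100 to 200 kb (-0.52 ± 0.33) and 200 to 300 kb (-0.16 ± 0.56), *Lhx8* from 100 to 200 kb (0.69 ± 0.63) and 200 to 300 kb (-0.10 ± 0.15), *Barx1* from 500 to 600 kb (-0.89 ± 0.71), and *Lhx6* from 0 to 100 kb (0.16 ± 0.41), -600 to -500 kb (0.076 ± 0.43) and 100 to 200 kb (-0.027 ± 0.40). The *Hoxa2* bait itself differed by -0.31 ± 0.32 (adjusted p = 0.781).

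Other genes of oral and aboral patterning were counted for context: *Fgf8*, *Bmp4*, *Msx1*, *Dlx1*, *Dlx2*, *Dlx5*, *Dlx6*, *Gsc*, *Pax9*, *Hand2* and *Isl1*. Of these 11 genes 10 had a bait with a start, 11 baits in all. None of the 11 baits was called in either direction in the first arch comparison, beside 0% of all baits. There the differences ran from -0.57 to 0.61 with a median of 0.21 and the lowest limma adjusted p was 0.709. None was called in the knockout comparison, beside 0.646% of all baits. There the differences ran from -1.73 to 0.48 with a median of -0.19 and the lowest limma adjusted p was 0.154. In the F test over the 7 conditions 3 of the 11 baits were called, beside 5.10% of all 21991 baits. They were those of *Dlx1* (F test adjusted p = 0.000513) and *Dlx2* (0.00256) and 1 of the 2 *Bmp4* baits (0.0135). Whether this count exceeds that share was not tested.

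The baits whose centred log2(sum + 5) ran most like that of each gene over the 14 libraries were found among 17322 baits, as a description. For *Pitx1* they were those of *Ccdc89* (Pearson r = 0.841), *Gm22082* (0.831) and *Arhgap1* with *Zfp408* (0.804). For *Lhx6* they were those of *Sh3tc1* with *Gm15650* (0.898), *Gm23698* (0.891) and *Bcl9* (0.891). For *Lhx8* they were those of *Tut4* (0.909), *Wt1* with *Wt1os* and *Gm27308* (0.901) and *Zic2* with *2610035F20Rik* (0.889). For *Barx1* they were those of *Fam83f* (0.893), *Alpk3* with *Platr32* (0.883) and *Zmynd8* with *Gm11465* (0.882). None of the 4 genes was among the 3 baits most like another of them. These values share libraries and their depth, so the correlations carry no test.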

How the data were processed

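PCHi-C was measured in 14 libraries of mouse CNCCs, 2 for each of 7 conditions grouped by their labels. The authors mapped reads with HiCUP to mm10 and ran CHiCAGO on each library, and they deposited 1 table per library with a CHiCAGO score for each pair of HindIII fragments that reached 5. The score is set within a library and is not scaled between libraries. Read counts are not in these tables, so depth is unknown and no counting interval can be given. The submitters' processing notes name bcl2fastq 2.17.

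The members and gene lists were chosen with earlier results of these data known. Baits were joined to GENCODE vM21 starts. Scores of a bait were summed over same-chromosome pairs, also in 100 kb windows within 1 Mb, as log2(sum + 5) centred on each library's median over the features fitted. Features needed a sum above 0 in at least 4 libraries. Pairs had to be listed in at least 2 libraries for the first arch comparison and in at least 4 for the knockout comparison. limma 3.58.1 (R 4.3.3) gave differences and Benjamini-Hochberg adjusted p over all features, with a threshold of 0.05, using the 12 wild-type libraries for the first arch comparison and all 14 for the knockout. Single totals were tested by exact permutation of single libraries, which counts the replicates of a condition as independent. The fits were tested on simulated data, where they recovered only part of the smaller shifts put in. Most of the larger shifts were also missed for pairs and for knockout windows, and part of them for baits. Recovery was lower in the knockout than in the first arch comparison, so a feature that was not called may still differ. Each fit also called some features that had not been shifted. Named were, by rule, the 5 fragments with the highest mean score per gene, the 3 windows of each gene with the largest absolute difference in each comparison and the 3 baits most alike, and exceptions are stated where they occur. Alternatives covered thresholds, filters, pseudocounts, scaling, sample sets and replicate blocks. Same-numbered libraries did not deviate together (15 wild-type condition pairs, r from -0.0888 to 0.136), so numbers were not used as pairs. Hi-C and expression were not analysed here. A result on 1 further gene of the list is not reported here.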

Additional observations from a re-analysis of the deposited data

Results flagged for a closer look

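In the first arch libraries, 1 library lay far from the other 3 in 2 windows, among 32 groups examined, where chance marks about 1 in 20 groups. The *Pitx1* window from 400 to 500 kb summed to 47.5 in Mx replicate 1 and to between 11.8 and 17.9 in the other 3. Its gap was 0.830 of the range, just past the critical value of Dixon's test. The *Barx1* window from 500 to 600 kb summed to 11.8 in Md replicate 2 and to 0 in the other 3. As unlisted pairs were set to 0, any listed contact in 1 of the 4 libraries alone would stand apart in this way, so this says only that the contact was listed in 1 library.

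Contacts with other chromosomes were not part of any comparison. More than 3 such fragments in a library were listed for *Pitx1* in Md replicate 1 (4 fragments) and E12.5 pinna replicate 2 (7 fragments), and in E12.5 pinna replicate 2 also for *Lhx6* (4 fragments) and *Barx1* (4 fragments). Pairs between chromosomes were 46.5% and 62.7% of all pairs in these 2 merged libraries. Their part in these contacts was not tested.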

How the results depend on the processing

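Where a value changed under an alternative, the cause was not tested. For pairs in the first arch comparison (3 called), 8 were called with scores capped at 20 and after quantile normalization, 41 with equal numbers of top-scoring pairs, 0 without the merged libraries, 0 with E10.5 alone, 14922 with a mean per condition, 133 without transformation, 151 when listed in at least 4 libraries and 793 with no filter. For knockout pairs (3493), the counts were 865 at a score of 10, 2082 with equal numbers, 6978 without the merged libraries, 214 in the 4 PA2 libraries alone, 44 without transformation, 12861 when listed in at least 2 libraries and 10770 with no filter. For baits, a mean per condition gave 95 in the first arch comparison (0). For knockout baits (142), the counts were 277 without the merged libraries, 230 in PA2 alone, 269 without centring and 90 by number of fragments. For first arch windows (0), they were 440 with a mean per condition, 2 with a pseudocount of 20, 384 with no filter and 24 by number. For knockout windows (214), they were 110 with equal numbers, 132 without the merged libraries, 0 in PA2 alone, 413 with a pseudocount of 1, 1902 with no filter and 474 by number. For any difference among the 7 conditions (1121), they were 614 at a score of 10 and 1761 within 1 Mb.

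Replicate numbers did not pair the libraries. With the replicate block, calls were 5 and 3305 for pairs, 0 and 219 for baits, 0 and 318 for windows (first arch, knockout) and 1473 among the 7 conditions. Leaving out 1 library, counts ran from 1 to 9 and 3347 to 3998 for pairs, 0 to 0 and 46 to 123 for baits, 0 to 0 and 23 to 130 for windows, and 638 to 1778 among the 7 conditions.

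For first arch totals, *Pitx1* was 2.85 times at a score of 10 (exact p = 0.0566), 2.02 scaled to the library sum (exact p = 0.0141) and 2.40 at E10.5. *Lhx8* was 1.46 at a score of 10, 1.34 scaled to the library sum (exact p = 0.0970) and 1.28 at E10.5. *Lhx6* turned to 1.26 at a score of 10 and 1.47 within 1 Mb. *Barx1* turned to 1.22 at a score of 10, 1.01 with equal numbers, 1.05 without the merged libraries and 1.20 at E10.5. Leaving out 1 library gave 1.89 to 2.67 for *Pitx1*, 0.873 to 1.03 for *Lhx6*, 1.36 to 1.56 for *Lhx8* and 0.896 to 1.06 for *Barx1*. For knockout totals, *Pitx1* was 0 at a score of 10, *Lhx6* 0.540 at a score of 10, 1.04 with equal numbers and 1.08 scaled, *Lhx8* 0.937 within 1 Mb and 1.01 scaled, and *Barx1* 2.21 at a score of 10 and 1.70 scaled. Leaving out 1 library gave 0.540 to 0.805, 0.737 to 0.976, 0.741 to 0.855 and 1.1 to 1.71 in the order *Pitx1*, *Lhx6*, *Lhx8*, *Barx1*.

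Of the pairs of the 4 genes, 15 were called with a mean per condition (7 of *Pitx1*, 7 of *Lhx8*, 1 of *Lhx6*), 13 of them higher in the first arch, of 168 tested, beside 4.78% of all pairs called and 1.95% called higher. With no filter 1 pair of *Lhx8* was called, higher in the first arch, of 349 tested, beside 0.0617% of all pairs called and 0.0487% called higher. In the knockout comparison 1 pair of *Lhx8* was called, lower in KO PA2, at a score of 10 (of 19, beside 3.53% of all pairs), with capped scores (of 94, 2.48%) and without the merged libraries (of 85, 4.83%). After quantile normalization 1 pair of *Lhx8* was called as well (of 94, 1.89%), but higher in KO PA2. Pairs listed in at least 2 libraries gave 3 calls (of 168, 4.12%), 1 each of *Lhx6*, *Lhx8* and *Barx1*, no filter gave 2 (of 369, 0.801%), and leaving out KO PA2 replicate 2 gave 2 of *Pitx1* (of 90, 2.60%). Some single differences changed sign. In the first arch comparison the *Barx1* bait gave 0.25 at a score of 10, 0.085 with equal numbers, 0.057 without the merged libraries, 0.13 at E10.5, 0.018 without centring and -0.19 to 0.11 leaving out 1 library. The *Lhx6* bait gave 0.32 at a score of 10, 0.60 within 1 Mb and -0.24 to 0.017 leaving out 1 library, and its window from -600 to -500 kb gave -0.14 without the merged libraries and -0.080 to 0.31 leaving out 1 library. In the knockout comparison, within 1 Mb, the *Lhx6* bait gave 0.064 and the *Lhx8* bait 0.016. Leaving out 1 library gave -0.28 to 0.16 for the *Lhx6* bait, -1.77 to 0.025 for the *Barx1* window from 500 to 600 kb, -0.60 to 0.30 for the *Pitx1* window from 200 to 300 kb, and -0.16 to 0.52 and -0.29 to 0.27 for the *Lhx6* windows from 0 to 100 kb and 100 to 200 kb. At a score of 10 these *Lhx6* windows gave -0.66 and 0.081. The window from 100 to 200 kb gave 0.057 in PA2 alone, 0.00088 with a pseudocount of 1 and 0.050 by number.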
